A study of Mus musculus with 2 samples.

Results

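The YAP/TEAD genes are the nuclear end of the Hippo pathway and a set of the genes it switches on. They were taken as the 10 genes of that name list found by symbol in the deposited expression table, out of 15953 genes in all, and every one of the 10 was present. They were read as 5 regulators (Yap1, Wwtr1, Tead1, Tead2 and Lats2) and 5 targets (Ccn1, Ccn2, Amotl2, Ajuba and Axl). The cells were mouse neural stem cells in suspension culture, and total RNA was sequenced in 1 library of Hikeshi conditional knockout cells (cKO) and 1 library of wild-type cells (WT). Hikeshi carries HSP70 chaperones into the nucleus, and the study asked how its loss bears on proliferation and differentiation. The Cre driver, the age and strain of the mice and the number of animals behind each library are not named in the labels.

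In the Hippo pathway the kinases STK3 and STK4 activate LATS1 and LATS2, which phosphorylate the coactivator YAP and its relative TAZ (the product of Wwtr1) and keep them in the cytoplasm. Unphosphorylated YAP and TAZ enter the nucleus, where they act chiefly through TEAD transcription factors. In the developing vertebrate neural tube YAP and TEAD are known for keeping progenitors dividing. Since the switch is a phosphorylation, the mRNA of a regulator does not show how much of its protein is active, and the mRNA of targets is the usual readout. Several targets feed back: LATS2, AMOTL2 and AJUBA are themselves pathway components.

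The transcription factors at the end of this pathway bind a short DNA element, and the promoters are shown because most of these genes that have a window hold it. Holding the element does not mark a gene as a target. TEAD factors bind the letters GGAATG, which read CATTCC on the other strand. RefSeq promoter windows of GRCm38.p6, the 250 bases before each annotated start, were searched for these letters on both strands, and 8 of the 10 genes had a window (Ccn2 and Tead1 did not). Of those, 6 held the letters at least once, against 14.4% of all 27025 genes with a window and 12.6% of the 10102 such genes among those kept for comparison. Of 11 other genes of a YAP/TAZ target signature 3 held them. The genes were chosen as pathway members, so the share is a description. In the lines below 30 bases are given around each occurrence, on the strand of the gene, with the letters in capitals.
Ccn1 (chr3:145650071-145650100, minus strand): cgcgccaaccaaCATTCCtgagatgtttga
Amotl2 (chr9:102717727-102717756, plus strand): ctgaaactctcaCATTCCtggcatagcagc
Ajuba, first (chr14:54577830-54577859, minus strand): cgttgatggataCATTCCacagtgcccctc
Ajuba, second (chr14:54577808-54577837, minus strand): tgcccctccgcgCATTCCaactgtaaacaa
Axl (chr7:25788949-25788978, minus strand): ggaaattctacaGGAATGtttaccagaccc
Yap1 (chr9:8004720-8004749, minus strand): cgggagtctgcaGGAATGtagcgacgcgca
Wwtr1 (chr3:57576029-57576058, minus strand): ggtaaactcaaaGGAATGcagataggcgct

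All 4 targets with a window held the letters, Ajuba 2 times. They began 103 bases before the start in Ccn1, 186 and 164 in Ajuba, 233 in Axl, and 65 before the RefSeq start used for Amotl2. The deposited coordinates of Amotl2 begin further upstream, at 102717091, so its whole window (102717554 to 102717803) lay inside the gene. Of that window 136 bases lay in annotated exons. The Amotl2 letters were thus upstream of that RefSeq start but inside the gene as deposited. Yap1 held them 141 bases before its start, and Wwtr1 170 or 136 bases before its start, depending on which of its 2 annotated starts is used. The windows of Tead2 and Lats2 had no such letters. The AP-1 element (TGACTCA or TGAGTCA), searched because AP-1 and TEAD often act together, was in 0 of the 10 windows of these genes and in 4.46% of all 32851 windows. The whole windows of Ccn1 and Ajuba, which differed in opposite directions between the libraries, are shown for comparison.
Ccn1 (chr3:145649986-145650235, minus strand): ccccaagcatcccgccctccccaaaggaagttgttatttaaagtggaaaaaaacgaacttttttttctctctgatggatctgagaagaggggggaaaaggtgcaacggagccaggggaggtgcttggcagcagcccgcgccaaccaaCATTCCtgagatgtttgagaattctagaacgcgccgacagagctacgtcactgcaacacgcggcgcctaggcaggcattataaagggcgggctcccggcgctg
Ajuba (chr14:54577662-54577911, minus strand): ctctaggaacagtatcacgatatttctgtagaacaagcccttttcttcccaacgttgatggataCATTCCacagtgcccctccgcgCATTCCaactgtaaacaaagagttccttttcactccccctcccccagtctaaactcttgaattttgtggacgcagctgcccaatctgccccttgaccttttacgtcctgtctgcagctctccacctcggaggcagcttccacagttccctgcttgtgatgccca

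The libraries held 18912683 reads (cKO) and 18839079 reads (WT). With 1 library per group no test between genotypes is possible, so no p-value is given. Levels are CPM, reads per 1000000 reads counted, or deposited TPM, which is scaled by gene length. A ratio is CPM in cKO over CPM in WT, with a 95% counting interval that compares these libraries, not the genotypes. Hikeshi itself had 640 and 718 reads (cKO and WT). Its ratio of 0.888 (0.797 to 0.989) does not settle the deletion, because counts over a whole gene include any exons left in place, and the genotypes are therefore those of the labels throughout. The Y-linked gene Eif2s3y had 1265 reads in the cKO-labelled library, against 0 in the WT-labelled library, so the libraries also differed in Y-linked expression, which cannot be told apart from the genotype. Of 10 neural stem cell markers, 3 had a higher level and 7 a lower level in the cKO-labelled library. Of the 10, 1 was more than 1.5-fold higher (Vim, 10%) and 2 more than 1.5-fold lower (Fabp7 and Sox9, 20%). Among all genes reaching 1 CPM in either library these shares were 4.22% and 10.2%. Sox2, a defining marker, had 404 and 407 CPM (cKO and WT). Vim, an intermediate filament gene, had 4578 CPM (cKO) and 2716 CPM (WT), and Sox9, a progenitor transcription factor gene, 144 CPM (cKO) and 240 CPM (WT).

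All 5 regulators were higher in the cKO-labelled library, by 1.09- to 1.53-fold and with the intervals of Yap1 and Tead2 spanning 1, whereas the targets split, with 2 higher and 3 lower. Of the 12618 genes kept at 1 CPM in either library, 6037 were higher in the cKO-labelled library. On a log2 scale after adding 1 CPM to each value, 4.22% of the genes kept exceeded 1.5-fold upward in cKO and 10.2% downward. On that scale 2 of the 10 YAP/TEAD genes (Wwtr1 and Ccn2) exceeded 1.5-fold upward and 0 downward. The added 1 CPM matters near that limit, which is 0.585 in log2 units. Wwtr1 lay just outside it at 0.61, while Ajuba at 0.54, Ccn1 at -0.57 and Amotl2 at -0.57 lay just inside, although the plain ratios of Ajuba and Ccn1 pass 1.5-fold. Intervals wholly above 1 were found for 5 of the 10 and wholly below 1 for 3, which has to be read against 28.1% and 31.2% of all genes kept. All 10 passed the filter, Ccn2 only through the library in which it was high.

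**Figure D1:**
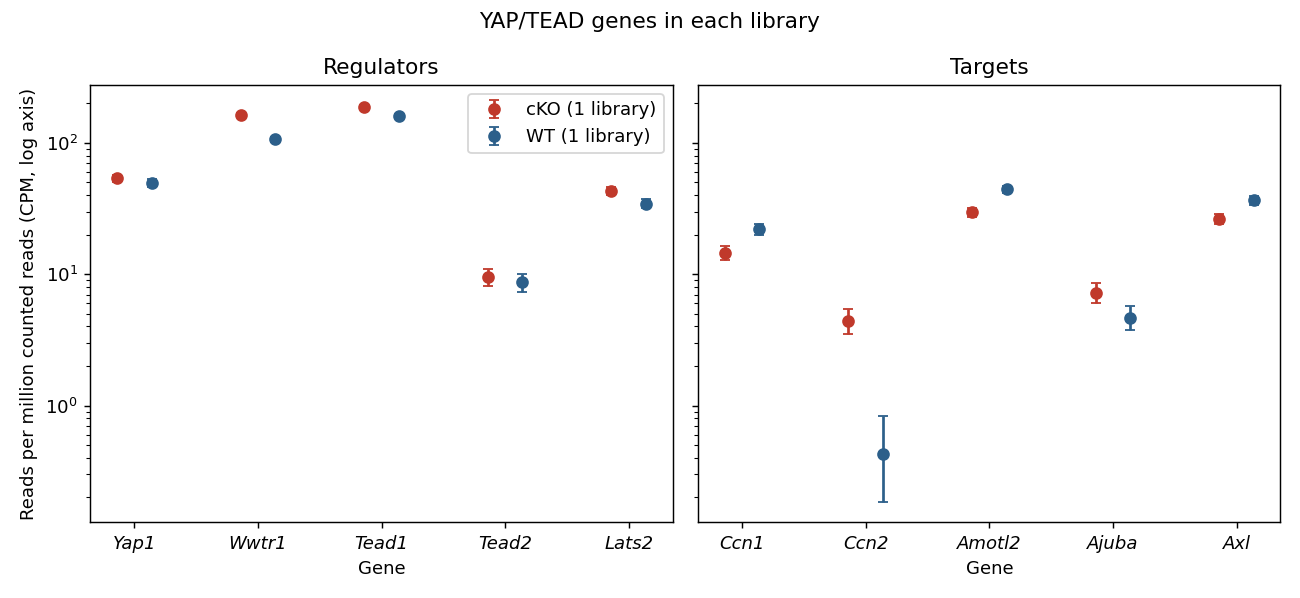
Level of each YAP/TEAD gene in CPM on a log axis, regulators on the left and targets on the right. Points are the single cKO library and the single WT library, and bars are exact 95% Poisson counting intervals. The cKO point lies above the WT point for every regulator and for Ccn2 and Ajuba, and below it for Ccn1, Amotl2 and Axl.

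Of the coactivators, Wwtr1 differed and Yap1 hardly did. Wwtr1, which encodes TAZ (Entrez 97064, chromosome 3, 57455644 to 57575910), had 3096 reads (164 CPM) in the cKO-labelled library and 2010 reads (107 CPM) in the WT-labelled library, a ratio of 1.53 (1.45 to 1.62). Its log2 difference of 0.61 was above that of 96.2% of all genes kept. Yap1 had 1019 reads (53.9 CPM, cKO) and 930 reads (49.4 CPM, WT), and its ratio of 1.09 (0.998 to 1.19) left no difference detectable at this depth. Wwtr1 was thus 2.59 times Yap1 in TPM in the cKO-labelled library and 1.84 times Yap1 in the WT-labelled library. By reads, that proportion was 1.41-fold higher in cKO (interval 1.26 to 1.56). Wwtr1 made up 72.2% of the summed TPM of both coactivators in the cKO-labelled library, against 64.8% in the WT-labelled library.

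Among the DNA-binding partners, Tead1 was by far the most abundant. It had 3563 reads (188 CPM, cKO) and 3023 reads (160 CPM, WT), a ratio of 1.17 (1.12 to 1.23). Tead2, which is known as an early TEAD gene of neural progenitors in the mouse embryo, had 179 and 163 reads (cKO and WT), and its ratio of 1.09 (0.880 to 1.36) spanned 1. The less abundant Tead3 had 73 and 98 reads (cKO and WT, ratio 0.742, 0.540 to 1.01) and Tead4 15 and 24 reads (0.623, 0.304 to 1.24). Neither interval excluded equality, and Tead4 passed the filter only through the WT-labelled library. Tead1 supplied 73.4% (cKO) and 69.1% (WT) of the summed TPM of the 4 TEAD genes. Vgll4, whose product competes with YAP for TEAD and so acts as an inhibitor, had 2020 reads (107 CPM, cKO) and 2747 reads (146 CPM, WT) and was 1.37-fold lower (1.29 to 1.45) in the cKO-labelled library. Vgll2 had 1 and 3 reads and Vgll3 2 and 2 reads, at or under a floor of 3 reads. Vgll1 was not found by symbol in the deposited expression table.

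Lats2, the kinase that inactivates YAP and is also induced by it, had 811 reads (42.9 CPM, cKO) and 648 reads (34.4 CPM, WT), a ratio of 1.25 (1.12 to 1.38). Its relative Lats1 had 1716 and 1639 reads (cKO and WT), and the ratio of 1.04 (0.974 to 1.12) spanned 1. In GENCODE M21 the gene model Gm49361 overlaps Lats2 on the same strand over 56442 bases, nearly the whole gene (57689662 to 57746212). Reads of the shared part could be assigned to either, and Gm49361 had no entry in the deposited expression table. Yap1 is overlapped on the opposite strand by Gm20416, over 11167 bases. Lats2 relative to Lats1 was 1.20-fold higher in the cKO-labelled library (interval 1.05 to 1.36).

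The matricellular genes Ccn1 and Ccn2, the most widely used YAP readouts, went in opposite directions. Both encode secreted proteins that bind integrins and matrix. Ccn1 had 275 reads (14.5 CPM) in the cKO-labelled library and 416 reads (22.1 CPM) in the WT-labelled library, and was 1.52-fold lower in cKO (1.30 to 1.78). Ccn2 (Entrez 14219, chromosome 10, 24595442 to 24598683) had 83 reads (4.39 CPM, cKO) and 8 reads (0.425 CPM, WT), a ratio of 10.3 (5.01 to 24.7). The log2 difference of 1.92 was above that of 99.9% of all genes kept, although only 8 reads stand behind the WT value. Among genes under 10 CPM in both libraries, the range in which Ccn2 lies, 1.96% exceeded 2-fold upward in cKO and 8.35% downward. In TPM, Ccn2 was 0.248 times Ccn1 in the cKO-labelled library, against 0.0158 times in the WT-labelled library, and by reads that proportion was 15.6-fold higher in cKO (7.43 to 38.0). Even in the cKO-labelled library Ccn1 was the more abundant of the pair.

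Ccn2 is overlapped on the opposite strand by Gm15270 in the GENCODE M21 annotation, over 1667 bases, and with no strand setting given their reads could not be told apart. The other genes of the CCN family were sparse. Ccn3 had 39 and 26 reads (cKO and WT, ratio 1.49, 0.887 to 2.56), and Ccn4, Ccn5 and Ccn6 were below the filter, with 8, 2 and 3 reads in the cKO-labelled library, against 14, 2 and 12 in the WT-labelled library.

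The remaining targets also differed in direction. Amotl2, an angiomotin that tethers YAP at cell junctions, had 559 reads (29.6 CPM, cKO) and 833 reads (44.2 CPM, WT) and was 1.496-fold lower in the cKO-labelled library (1.34 to 1.67). The other angiomotins, Amot and Amotl1, had ratios of 1.25 (1.09 to 1.42) and 1.20 (1.13 to 1.27), so that within the family Amotl2 alone was the lower. Amotl2 relative to Amotl1 was 1.79-fold lower in the cKO-labelled library (1.59 to 2.03).

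Axl, a receptor tyrosine kinase for GAS6, had 495 reads (26.2 CPM, cKO) and 687 reads (36.5 CPM, WT) and was 1.39-fold lower in the cKO-labelled library (1.24 to 1.57). Its sister receptors did not follow it. Tyro3 had 761 and 589 reads (cKO and WT, ratio 1.29, 1.15 to 1.44) and Mertk 456 and 458 (0.992, 0.869 to 1.13). Axl relative to Tyro3 was 1.79-fold lower in the cKO-labelled library (1.53 to 2.11), and relative to Mertk 1.38-fold lower (1.16 to 1.65). Of the ligands, Gas6 was 1.16-fold lower (1.05 to 1.27) and Pros1 had a ratio of 1.27 (1.18 to 1.38).

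Ajuba, a LIM-domain protein that restrains LATS kinases, had 137 reads (7.24 CPM, cKO) and 88 reads (4.67 CPM, WT), a ratio of 1.55 (1.18 to 2.05). Limd1, of the same LIM-domain family, had 632 reads (cKO) and 1017 reads (WT) and was 1.62-fold lower in the cKO-labelled library (1.46 to 1.79). Wtip, the third member of that family, had 278 and 223 reads (cKO and WT, ratio 1.24, 1.04 to 1.49).

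**Figure D2:**
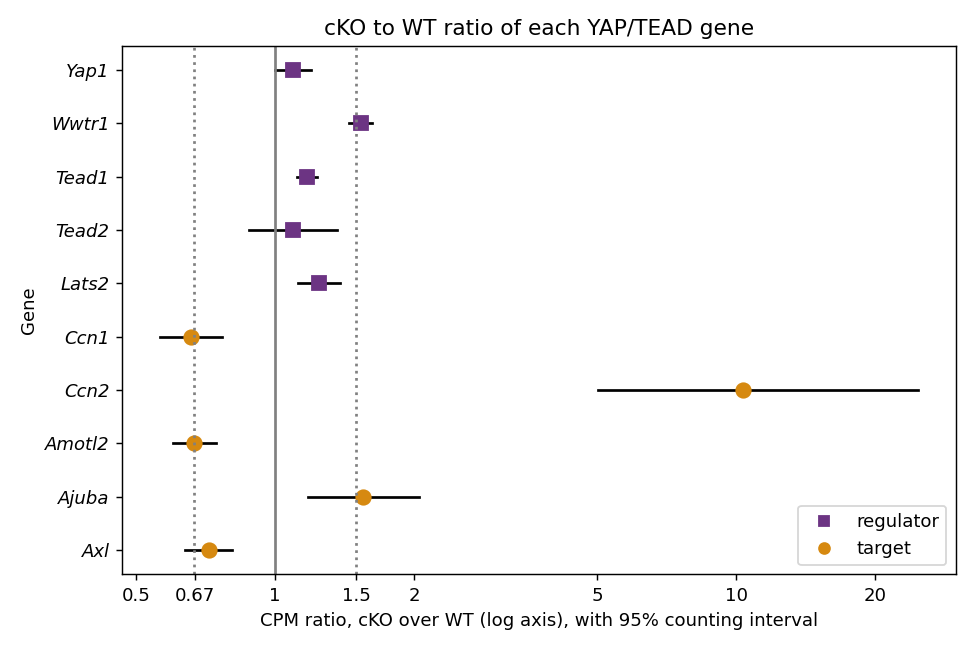
CPM ratio of each YAP/TEAD gene, cKO over WT, on a log axis, with its 95% counting interval (exact conditional binomial). Squares are regulators, circles targets, the solid line marks a ratio of 1 and the dotted lines 1.5-fold in either direction. The 5 regulators lie between 1.09 and 1.53, while the targets run between 0.658 (Ccn1) and 10.3 (Ccn2).

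Set against the regulators, 3 of the 5 targets were the lower in the cKO-labelled library. The median log2 difference was -0.46 for the 5 targets and 0.23 for the 5 regulators, a gap of -0.69, while the median of all genes kept was -0.02. The mean of the targets was 0.17, of the other sign than their median, and without Ccn2 (left out after its value was seen) the mean was -0.26 and the median -0.51. The targets also spread over 2.49 log2 units and the regulators over 0.50. Summed, the targets had 1549 reads (cKO) and 2032 reads (WT), a ratio of 0.759 (0.710 to 0.812), and the regulators had 8668 reads (cKO) and 6774 reads (WT), a ratio of 1.27 (1.23 to 1.32). Ccn1, Amotl2 and Axl were each lower relative to all 5 regulators, with every interval below 1. Ccn2 was higher relative to all 5, and Ajuba relative to 1 of 5 (Yap1), the other 4 intervals spanning 1. Counting Lats2, an established target, among the targets reduced the gap to -0.25.

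The order of the levels per length differed between the libraries. In TPM the cKO-labelled library ran Wwtr1 (60.0), Tead1 (32.2), Yap1 (23.1), Lats2 (14.3), Ccn1 (13.7), Amotl2 (12.3), Axl (11.0), Tead2 (8.47), Ajuba (3.69) and Ccn2 (3.41). The WT-labelled library ran Wwtr1 (38.9), Tead1 (27.3), Yap1 (21.1), Ccn1 (20.8), Amotl2 (18.4), Axl (15.1), Lats2 (11.6), Tead2 (7.76), Ajuba (2.37) and Ccn2 (0.33). Ccn1, Amotl2 and Axl thus stood below Lats2 in the cKO-labelled library and above it in the WT-labelled library. By counting error alone the neighbours between Lats2 and Axl in cKO, and between Yap1 and Amotl2 in WT, overlapped, as did Ajuba and Ccn2 in cKO.

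**Figure D3:**
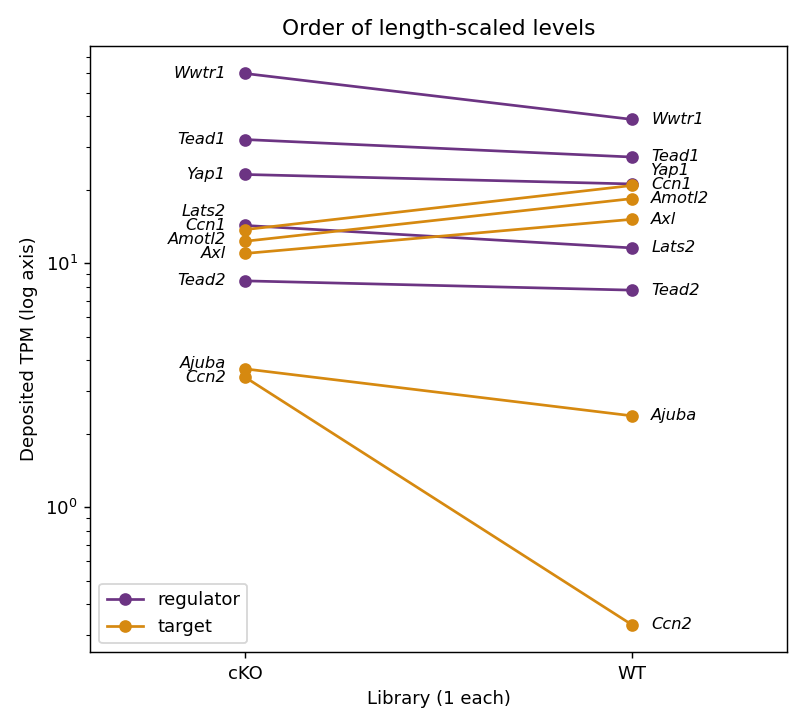
Deposited TPM of the 10 genes on a log axis, the cKO library on the left and the WT library on the right, 1 library each, with purple lines for regulators and orange lines for targets. Lats2 crosses Ccn1, Amotl2 and Axl, and Ccn2 has 3.41 TPM in cKO and 0.33 TPM in WT.

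Differences in the rest of the Hippo pathway were mostly under 1.5-fold, and more of them were upward than downward. Of 33 other pathway genes, all kept, 1 exceeded 1.5-fold upward (Fat4, 3.03%) and 2 downward (Mink1 and Limd1, 6.06%), against 4.22% and 10.2% of all genes kept. Their median log2 difference was 0.09, against -0.02 over all genes kept. Of the 33, 23 lay above 0, against 6037 of the 12618 genes kept. Intervals were wholly above 1 for 16 of the 33 (48.5%) and wholly below 1 for 8 (24.2%), against 28.1% and 31.2% of all genes kept. Rassf5, 1 of the 16, had 21 reads (cKO) and 9 reads (WT). It passed the filter only through the cKO-labelled library, so the filter fixed the direction of its difference but not the size. The core kinase Stk3 had 572 and 448 reads (cKO and WT, ratio 1.27, 1.12 to 1.44), and its relative Stk4 1095 and 1023 (1.07, 0.978 to 1.16). Sav1, their scaffold, had a ratio of 1.03 (0.939 to 1.14). The LATS cofactors Mob1a and Mob1b had ratios of 1.13 (1.05 to 1.21) and 1.17 (1.02 to 1.35), and the upstream activator Nf2 was 1.10-fold lower (1.05 to 1.16). Fat4, an atypical cadherin, had 520 reads (cKO) and 324 reads (WT), a ratio of 1.60 (1.39 to 1.84). Mink1, a kinase that can act on LATS in parallel to STK3 and STK4, had 674 reads (cKO) and 1316 reads (WT) and was 1.96-fold lower (1.78 to 2.15).

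A wider set of YAP outputs also held genes that were higher and genes that were lower. The published signature of 22 YAP/TAZ targets, drawn up in human cancers, contains 5 of the 10 genes (Amotl2, Lats2, Ccn1, Ccn2 and Axl). Of its other 17 genes 15 were kept. Of these 5 exceeded 1.5-fold upward (33.3%) and 2 downward (13.3%), against 4.22% and 10.2% of all genes kept. The median log2 difference was -0.05 and the mean 0.15. Intervals were wholly above 1 for 6 of the 15 (40%) and wholly below 1 for 3 (20%), against 28.1% and 31.2% of all genes kept. The 5 targets had 2 above (40%) and 3 below (60%), around a median of -0.46. Dock5, 1 of the 3 signature genes below, had 11 reads (cKO) and 25 reads (WT) and passed the filter only through the WT-labelled library. Among the targets Ccn2 passed it only through the cKO-labelled one. For Dock5 and Ccn2 the filter thus fixed the direction of the difference but not the size. The difference between the lists was not tested. Igfbp3, a secreted binder of insulin-like growth factors, had 28397 reads (cKO) and 12720 reads (WT), a ratio of 2.22 (2.18 to 2.27). Tgfb2, a TGF-beta ligand, had 2173 and 1036 reads (cKO and WT, 2.09, 1.94 to 2.25), and Myof, a membrane repair protein gene, 258 and 110 (2.34, 1.86 to 2.95). The other 2, named after their values were seen, were Nuak2 (2.15, 1.56 to 2.98) and Crim1 (1.56, 1.28 to 1.90), which lay next to the threshold. F3, tissue factor, had 531 reads (cKO) and 1104 reads (WT) and was 2.09-fold lower (1.88 to 2.32), and Nt5e, an ecto-enzyme that makes adenosine, was 1.91-fold lower (1.46 to 2.52). Ankrd1 and Foxf2 were not found by symbol in the deposited expression table, so no values are given for them.

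Ccn1 and Ccn2 are also known targets of serum response factor (SRF), so its other targets were read beside them. Of 17 SRF targets 3 exceeded 1.5-fold upward and 3 downward (17.6% each), against 4.22% and 10.2% of all genes kept, with a median log2 difference of -0.07. Zyx, a focal adhesion gene, had a ratio of 1.56 (1.45 to 1.67) and the tropomyosin gene Tpm4 1.55 (1.48 to 1.62). The third, named after its values were seen, was Filip1l with 42 reads (cKO) and 3 reads (WT, ratio 13.9, 4.46 to 70.3). Filip1l passed the filter only through the cKO-labelled library and Fhl2 only through the WT-labelled one. For these genes too the filter fixed the direction of the difference but not the size. Fhl2 was 3.40-fold lower (1.98 to 6.12), Myl9 2.19-fold (1.69 to 2.85) and Tagln 1.92-fold lower (1.37 to 2.71). Srf itself had 737 and 770 reads (cKO and WT, ratio 0.953, 0.861 to 1.06).

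**Figure D4:**
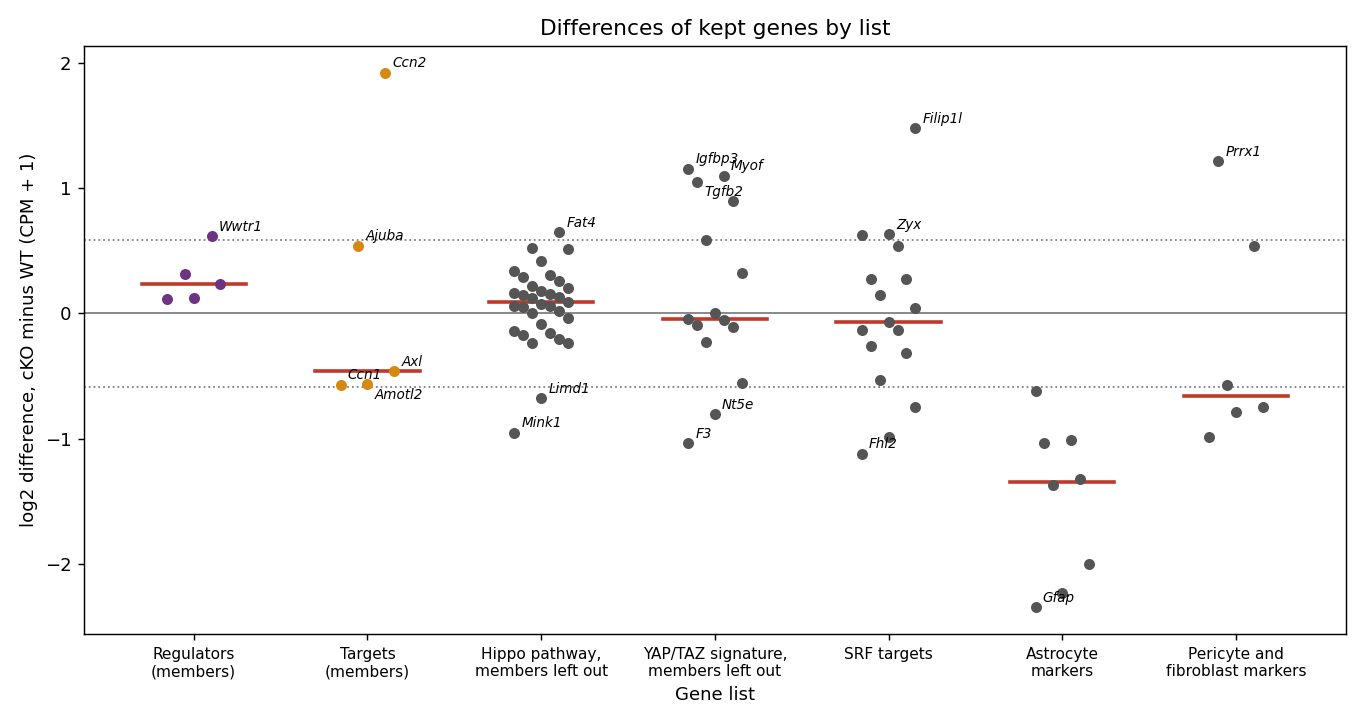
log2 differences, cKO minus WT, of all kept genes of 7 lists. Each point is a gene, red bars are list medians, the solid line is 0 and dotted lines mark 1.5-fold, and the 10 YAP/TEAD genes are shown in the first 2 columns only. Of the 33 Hippo pathway genes shown in their column 30 lie within 1.5-fold. The signature and SRF lists reach past 1.5-fold on either side, and all 8 astrocyte markers lie at or below -0.62.

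Markers of other cell types differed between the libraries, and in bulk RNA fewer cells of a type and less RNA per cell cannot be told apart. All 8 astrocyte markers were at least 1.5-fold lower in the cKO-labelled library (100%, against 10.2% of all genes kept). Their summed level was 2315 CPM (cKO) and 4602 CPM (WT). All 9 oligodendrocyte lineage markers were at least 1.5-fold lower as well (100%, against the same 10.2%), at 128 CPM (cKO) and 1367 CPM (WT). Of these, 2 (Mag and Enpp6) passed the filter only through the WT-labelled library. Neuronal markers had 0 of 6 at least 1.5-fold higher and 3 lower (0% and 50%), against 4.22% and 10.2% of all genes kept. They summed to 556 CPM (cKO) and 710 CPM (WT). Of 6 pericyte and fibroblast markers kept, 1 (Prrx1) was at least 1.5-fold higher and 3 (Pdgfrb, Tagln and Myl9) lower. That is 16.7% and 50%, against the same 4.22% and 10.2% of all genes kept. Rgs5 passed the filter only through the WT-labelled library. Tagln, Myl9 and Acta2 of this list are also among the SRF targets above. The 10 measured summed to 77.9 CPM (cKO) and 52.4 CPM (WT), but without Prrx1, left out after its values were seen, the other 9 summed to 18.3 CPM (cKO) and 27.3 CPM (WT). The defining collagens Col1a1, Col1a2 and Col3a1 were all under 1 CPM in either library. The 4 endothelial markers measured summed to 4.02 CPM (cKO) and 2.28 CPM (WT). The 6 microglial markers measured summed to 5.13 CPM (cKO) and 3.34 CPM (WT), almost all of it Cd68. The part of these cell types in the differences of Ccn1, Ccn2, Amotl2, Axl and the other genes was not tested.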

How the data were processed

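The authors deposited 1 table holding, per the file headers, an estimated read count, TPM, FPKM and a normalized read count for each library. Reads were placed on GRCm38.p6, per the submitters' processing notes, and for the aligner, counter, annotation and strand setting the sources used here give nothing. The deposited estimated counts were whole numbers for all 10 genes reported and were rounded for the others. They were divided by column totals to give CPM. Deposited TPM was used to compare genes, deposited FPKM was not analysed further, and the deposited normalized signal (the read count times a constant per library) served as an alternative scaling.

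Genes reaching 1 CPM in either library were kept. Differences are log2 of CPM plus 1, cKO over WT. Ratio intervals are exact conditional binomial (Clopper-Pearson), ratios between genes carry exact conditional odds-ratio intervals (SciPy 1.17.1), and both cover counting error only. Without molecular identifiers, reads are no independent molecules. Depth was 18912683 reads (cKO) and 18839079 reads (WT). With 1 library per group there is no replicate check. The calculation was tested on simulated data. Scaling alternatives came from edgeR 4.0.16 and DESeq2 1.42.0, used for size factors only.

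The 10 genes and all lists were chosen with earlier results of these data known. Named genes were the 10, the YAP partner, CCN and TAM receptor families (AXL, MERTK, TYRO3 and their ligands), fixed anchors, and, in each of the Hippo, signature and SRF lists, up to 4 genes each way that were past 1.5-fold with 50 or more reads in the higher library. The pairs of relatives compared were picked after their values were seen.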

Additional observations from a re-analysis of the deposited data

How the results depend on the processing

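Under edgeR and DESeq2 scaling, the authors' normalized read count, deposited TPM, another added value (0.1 or 5 CPM) and removal of the median of each twentieth of transcript GC content, all 70 recomputed differences of the 10 genes kept their sign. Of these 68 lay inside the counting interval. The other 2 were Ccn2 at 3.10 with 0.1 CPM added and 0.79 with 5 CPM added. The gap between the medians of targets and regulators was -0.25 with Lats2 counted as a target, since the groups themselves change. Counts past 1.5-fold are given over the whole signature (6 higher and 2 lower as reported) and all 36 pathway genes (1 higher and 2 lower), YAP/TEAD genes included. The shares over all genes kept, 4.22% upward and 10.2% downward, belong to the reported setting only. They are no background for the counts under the alternatives, which show only how the calls move. With 0.1 CPM added, 3 of the 10 genes were higher (Wwtr1, Ccn2 and Ajuba) and 1 lower (Ccn1), 6 signature genes were higher and 4 lower, and 3 pathway genes were higher and 2 lower. With 5 CPM added, 4 signature genes were higher and 1 lower, and 0 pathway genes were higher and 2 lower. The number of pathway genes higher was also 0 with TPM and 2 after the GC step. With a filter at 5 CPM, 1 of the 10 genes was higher, because Ccn2 was filtered out. No paired analysis was possible because each group has 1 library. Depth limits Ccn2 most, with 8 reads in the WT-labelled library.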

Other observations

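Strn, Strn3, Strn4, Slmap and Mob4 encode components of the STRIPAK phosphatase complex, which keeps STK3 and STK4 inactive, and were within 1.5-fold but not on 1 side. Strn and Strn4 were 1.18-fold (1.07 to 1.30) and 1.18-fold lower (1.12 to 1.24) in the cKO-labelled library. Strn3, Slmap and Mob4 had ratios of 1.09 (1.03 to 1.16), 1.11 (1.04 to 1.19) and 1.12 (1.05 to 1.20). Dchs1, which encodes the cadherin partner of FAT4, had 1844 reads (cKO) and 1374 reads (WT), a ratio of 1.34 (1.25 to 1.43), next to 1.60 for Fat4. The related kinase genes Map4k4 and Tnik were 1.13-fold (1.09 to 1.16) and 1.16-fold lower (1.08 to 1.24), beside 1.96-fold for Mink1. These genes were named after their values were seen.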
